A study of Mus musculus with 12 samples.

Results

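The globin genes, with the red cell genes *Alas2* and *Slc4a1*, were followed over 12 samples of newborn mouse brain on Illumina MouseWG-6 arrays. They were taken as every probe whose symbol in the platform annotation was *Hba-a1*, *Hba-a2*, *Hbb-b1*, *Hbb-b2*, *Hba-x*, *Hbb-bh1*, *Hbb-y*, *Alas2* or *Slc4a1*. Of these 9 genes 8 had a probe, and they gave 20 probes of the 45281 on the array. *Hba-a2*, the second adult alpha globin gene, was not analysed here. *Hbb-b1* was read by 11 probes, *Hbb-y* and *Hbb-bh1* by 2 each, and the other 5 genes by 1 each. Adult globins were read by 13 of the 20 probes, of which 12 belong to a beta chain, and embryonic globins by 5.

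Hemoglobin is a tetramer of alpha and beta chains, each holding a heme, and it is made by erythroid cells and carried by circulating red cells. Primitive red cells of the mouse yolk sac use the embryonic genes *Hba-x* (zeta), *Hbb-y* (epsilon-y) and *Hbb-bh1*, whereas fetal liver and bone marrow use the adult alpha genes and the adult beta genes, so that adult chains dominate at birth. *Alas2* encodes the erythroid enzyme that starts heme synthesis, and *Slc4a1* encodes band 3, the anion exchanger that anchors the red cell membrane to its skeleton. Reticulocytes still hold these transcripts, so a brain that was not cleared of blood carries them in its vessels. Mouse strains differ in the adult beta genes themselves: C57BL/6 mice carry the s haplotype with *Hbb-bs* and *Hbb-bt*, and some other strains carry the d haplotype with *Hbb-b1* and *Hbb-b2*. The haplotypes of these mice were not tested.

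Total RNA came from whole brains at postnatal day 1, with 3 arrays in each of 4 groups. WT 129 and *nm1054* 129 brains were of the 129S6/SvEvTac strain, and WT B6 and *nm1054* B6 brains of the C57BL6/J strain. The *nm1054* mice were homozygous for a spontaneous deletion on chromosome 1 that takes out *Cfap221*, needed by motile cilia, and *Steap3*, the iron reductase of erythroid cells, among others. On B6 the loss of *Steap3* causes a lethal anemia, and the *nm1054* B6 mice alone are described as carrying a bacterial artificial chromosome with *Steap3*. Every comparison with *nm1054* B6 brains therefore also includes that transgene. Male and female mice were mixed in each group, and whether an array holds RNA of a single brain or of several is not plainly stated. No source says whether the brains were perfused.

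The promoters of globin genes and of *Alas2* are shown as background, and their part in the array values was not tested. Each line holds the 150 bases before the transcription start in RefSeq (GRCm38.p6, a C57BL/6J genome), with capitals for the motifs searched on both strands. These were CCAAT, which NF-Y is known to bind, then CCACCC, the CACCC box known for Klf1, then AGATAA, a motif known for Gata1, and lastly TATAAA or its variant TATAAG, both TATA boxes.
*Hba-a1* (chr11:32283522-32283671, plus strand): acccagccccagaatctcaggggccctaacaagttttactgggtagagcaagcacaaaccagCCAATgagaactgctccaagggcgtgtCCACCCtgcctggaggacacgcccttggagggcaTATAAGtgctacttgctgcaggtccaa
*Hbb-bs* (chr7:103827929-103828078, minus strand): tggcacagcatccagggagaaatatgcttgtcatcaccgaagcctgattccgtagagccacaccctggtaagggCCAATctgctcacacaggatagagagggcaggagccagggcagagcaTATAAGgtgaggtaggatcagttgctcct
*Hbb-bt* (chr7:103813924-103814073, minus strand): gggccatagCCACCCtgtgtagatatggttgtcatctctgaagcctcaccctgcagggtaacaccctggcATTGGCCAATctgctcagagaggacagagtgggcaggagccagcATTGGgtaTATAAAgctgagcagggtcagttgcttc
*Hba-x* (chr11:32276450-32276599, plus strand): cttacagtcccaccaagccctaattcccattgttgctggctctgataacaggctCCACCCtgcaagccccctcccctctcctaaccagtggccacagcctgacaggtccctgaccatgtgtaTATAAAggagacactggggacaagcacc
*Hbb-y* (chr7:103853208-103853357, minus strand): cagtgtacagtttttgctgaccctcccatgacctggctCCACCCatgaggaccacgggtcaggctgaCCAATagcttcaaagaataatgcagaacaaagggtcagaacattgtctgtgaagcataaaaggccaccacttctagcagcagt
*Alas2* (chrX:150547267-150547416, plus strand): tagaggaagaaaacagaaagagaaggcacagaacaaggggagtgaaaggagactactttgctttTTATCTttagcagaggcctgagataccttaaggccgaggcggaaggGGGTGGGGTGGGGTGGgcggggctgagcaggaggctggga
Of 32851 such windows, 24.5% held CCAAT, 19.7% CCACCC, 5.65% AGATAA, 7.57% TATAAA and 4.06% TATAAG. The *Hba-a1*, *Hbb-bs* and *Hbb-bt* windows held CCAAT with TATAAA or TATAAG, those of *Hba-a1* and *Hbb-bt* also CCACCC, and the *Hba-x* window TATAAA with CCACCC. *Hbb-y* had CCACCC and CCAAT, and the only AGATAA match among these windows, read on the opposite strand, lay before *Alas2*, where 3 CCACCC matches overlapped on that strand too. The windows of *Hba-a1* and *Hba-a2* were 96.1% identical after alignment, those of *Hbb-bs* and *Hbb-bt* 73.7%, and those of *Hbb-bs* and *Hbb-y* 52.6%. Windows of *Hbb-b1*, *Hbb-b2*, *Hbb-bh1* and *Slc4a1* were not analysed here.

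The deposited values are log2 intensities, and each probe was set to a median of 0 over the 12 arrays, so a value of 1 stands for a signal 2 times that median. They hold no signal level and no detection call, so a globin probe cannot be ranked above another, a saturated or undetected probe cannot be told apart from one that did not move, and the tissue label cannot be checked by the level of its markers. In whole brain RNA, fewer red cells and less RNA per red cell cannot be told apart. A difference is called where limma's Benjamini-Hochberg adjusted p over all 45281 probes is under 0.05 and the fold change over 1.5. The whole array was shifted slightly between strains, with a median of 129 minus B6 of 0.15 for WT and 0.12 for *nm1054* brains, or 0.02 for both after each array was centred, so small strain differences are read against that shift.

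**Figure D1:**
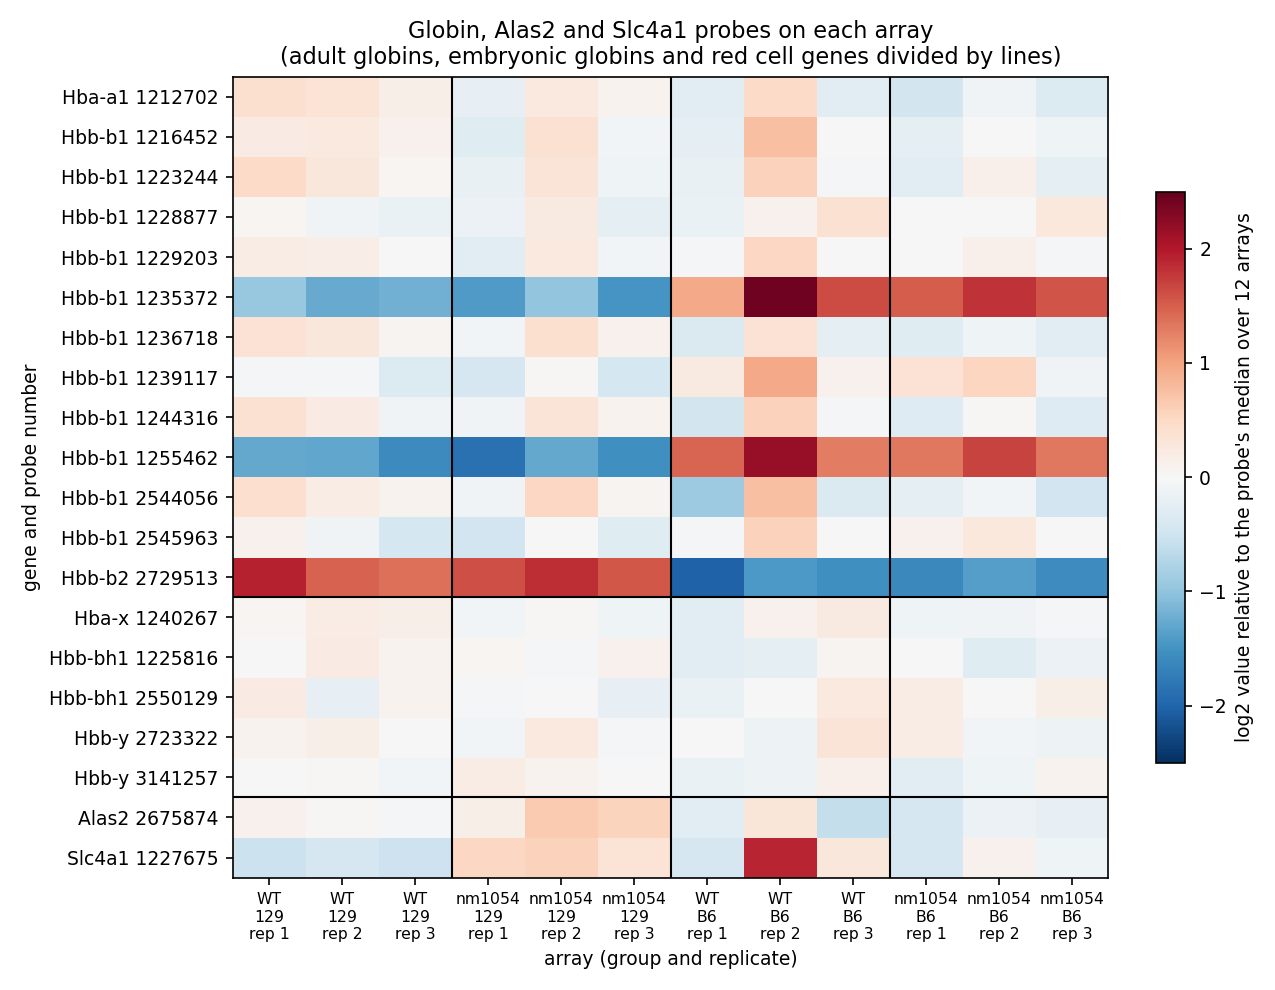
Log2 value of each of the 20 probes (rows, named by gene and probe number) on each of the 12 arrays (columns), relative to the probe's median over the arrays, with red above and blue below it. *Hbb-b2* and 2 of the 11 *Hbb-b1* probes separate the strains in opposite directions, and most adult globin probes and *Slc4a1* stand high in WT B6 replicate 2.

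The adult beta globin probes differed most between the strains, and they did so in opposite directions. The *Hbb-b2* probe read higher in 129 brains by 9.56-fold in WT and 9.11-fold in *nm1054* mice. By contrast 2 of the 11 *Hbb-b1* probes read higher in B6 brains by 7.02-fold to 8.17-fold. Which adult beta gene each probe reads in each strain was not tested, so these are differences of probes. No alpha globin, embryonic globin or other *Hbb-b1* probe was called between the strains. *Alas2* was called in *nm1054* brains alone, at a smaller size. In all, 3 of 20 probes were called between WT strains and 4 of 20 between *nm1054* strains, where 3.33% and 3.27% of all probes were called. The 1 WT probe higher in 129 stands beside 1.67% of all probes, and the 2 lower ones beside 1.66%, while in *nm1054* brains 2 were higher and 2 lower, beside 1.39% and 1.88%. Before adjustment p was under 0.05 at 5 and 7 of the 20, where it was at 26.7% and 22.2% of all probes, and the groups did not overlap at 5 and 6, where they did not at 29.4% and 29.3%. Without WT B6 replicate 2, an array that stood apart in adult globins and some neutrophil genes, 4 probes were called between WT strains in place of 3 and 5 between *nm1054* strains in place of 4.

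The *Hbb-b2* probe read 1.93, 1.48 and 1.38 in WT 129, 1.61, 1.85 and 1.55 in *nm1054* 129, -2.03, -1.43 and -1.53 in WT B6, and -1.60, -1.38 and -1.57 in *nm1054* B6 brains. All 6 arrays of 129 lay above all 6 of B6, a separation that 8.75% of all probes show. The difference of 129 minus B6 was 3.26 (SE 0.16, adjusted p = 1.8e-11 by limma) in WT and 3.19 (SE 0.16, adjusted p = 2.5e-11) in *nm1054* brains, with 3 arrays in each group. Among named probes, that of *Gm5292* ran closest to it over the 12 arrays, at a mean absolute difference of 0.197, followed by *Tmem87a* at 0.244 and *Sfrp1*, a secreted Wnt inhibitor, at 0.265.

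The *Hbb-b1* probe ILMN_1255462, which the study's own list of WT strain differences names *Hbb-b1*/*Hbb-bs*, gave the reverse picture. It read -1.28, -1.30 and -1.60 in WT 129, -1.86, -1.28 and -1.52 in *nm1054* 129, 1.46, 2.18 and 1.28 in WT B6, and 1.32, 1.69 and 1.32 in *nm1054* B6 brains. The strains did not overlap, and WT B6 replicate 2 was the highest array. The difference was -3.03 (SE 0.19, adjusted p = 9.3e-10 by limma) in WT and -3.00 (SE 0.19, adjusted p = 1.1e-09) in *nm1054* brains. Closest to this probe were *Me1*, malic enzyme, at a mean absolute difference of 0.182, *Lars2*, a mitochondrial leucyl-tRNA synthetase, at 0.189, and *Ctsc*, cathepsin C, at 0.190.

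The *Hbb-b1* probe ILMN_1235372 also stood higher in B6. It read -0.95, -1.27 and -1.20 in WT 129, -1.41, -0.99 and -1.48 in *nm1054* 129, 0.95, 2.43 and 1.63 in WT B6, and 1.51, 1.80 and 1.56 in *nm1054* B6 brains. Again the 6 and 6 arrays did not overlap, although the WT B6 arrays spread over more than 1 log2 unit. The difference was -2.81 (SE 0.24, adjusted p = 7.6e-08 by limma) in WT and -2.92 (SE 0.24, adjusted p = 4.3e-08) in *nm1054* brains. The methods' t-test, run probe by probe on the same arrays, ended the WT call (adjusted p = 0.0938).

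**Figure D2:**
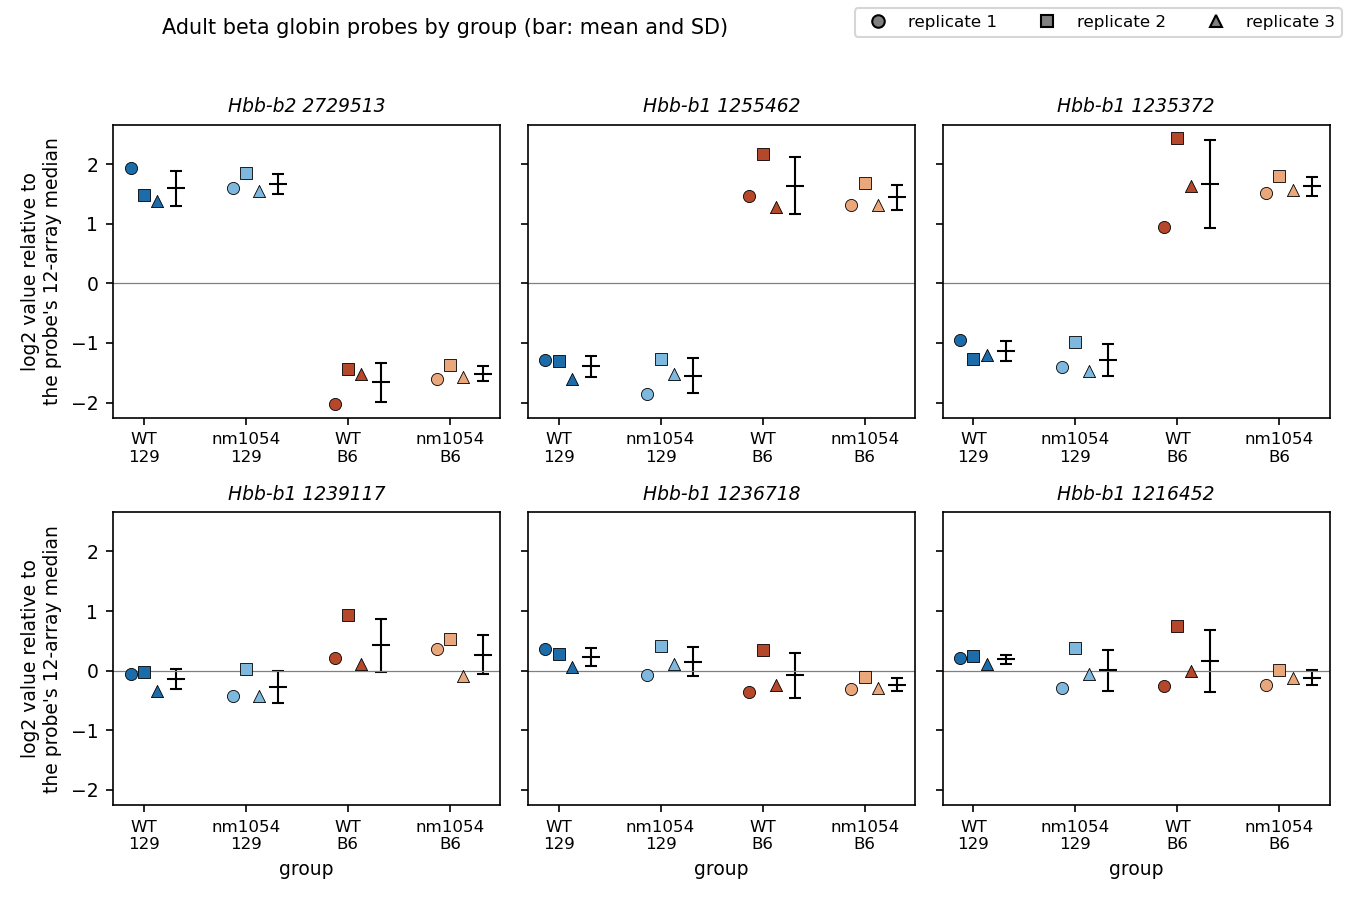
Log2 values of 6 adult beta globin probes by group, relative to each probe's median over the 12 arrays. Symbols are the 3 replicates and bars give mean and SD. *Hbb-b2* lies above 1.3 in every 129 array and below -1.3 in every B6 array. The other way, 2 *Hbb-b1* probes lie below -0.95 in every 129 array and above 0.95 in every B6 array. The 3 further *Hbb-b1* probes stay within 1 log2 unit of 0.

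The remaining 9 *Hbb-b1* probes were called in neither strain comparison. Their differences ran from -0.57 to 0.40 with a median of 0.02 in WT brains, and from -0.55 to 0.43 with a median of 0.12 in *nm1054* brains. In each genotype 5 of the 9 were higher and 4 lower in 129. Only 2 of the 11 *Hbb-b1* probes, those above, separated the 6 and 6 arrays of the strains.

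Probes assigned to *Hbb-b1* thus gave unlike readings. The platform table gives 4 of the 11 probes the accession NM_008220, which RefSeq now lists as *Hbb-bt*, and 7 the accessions of cDNA clones that RefSeq does not hold. Within the 4 probes of NM_008220 the WT difference was -2.81 at ILMN_1235372, -0.57 at ILMN_1239117, 0.02 at ILMN_1216452 and 0.31 at ILMN_1236718. In *nm1054* brains they stood at -2.92, -0.55, 0.12 and 0.38 in that order. The 7 clone probes ran from -3.03 to 0.40 in WT and from -3.00 to 0.43 in *nm1054* brains. Near-identical adult beta genes can share hybridization, and how far each probe tells *Hbb-b1*, *Hbb-b2*, *Hbb-bs* and *Hbb-bt* apart was not tested.

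ILMN_1239117 came nearest to a call among these 9. It read -0.05, -0.03 and -0.34 in WT 129, -0.42, 0.03 and -0.43 in *nm1054* 129, 0.22, 0.94 and 0.12 in WT B6, and 0.36, 0.54 and -0.09 in *nm1054* B6 brains. The WT groups did not overlap and the *nm1054* groups did. Its difference was -0.57 in WT (SE 0.20, adjusted p = 0.082 by limma) and -0.55 in *nm1054* brains (SE 0.20, adjusted p = 0.11). With each array centred on its median it became -0.70 and -0.64 and was called in both genotypes. ILMN_2544056 was called in WT brains once WT B6 replicate 2 was left out, at 0.86 in place of 0.40.

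**Figure D3:**
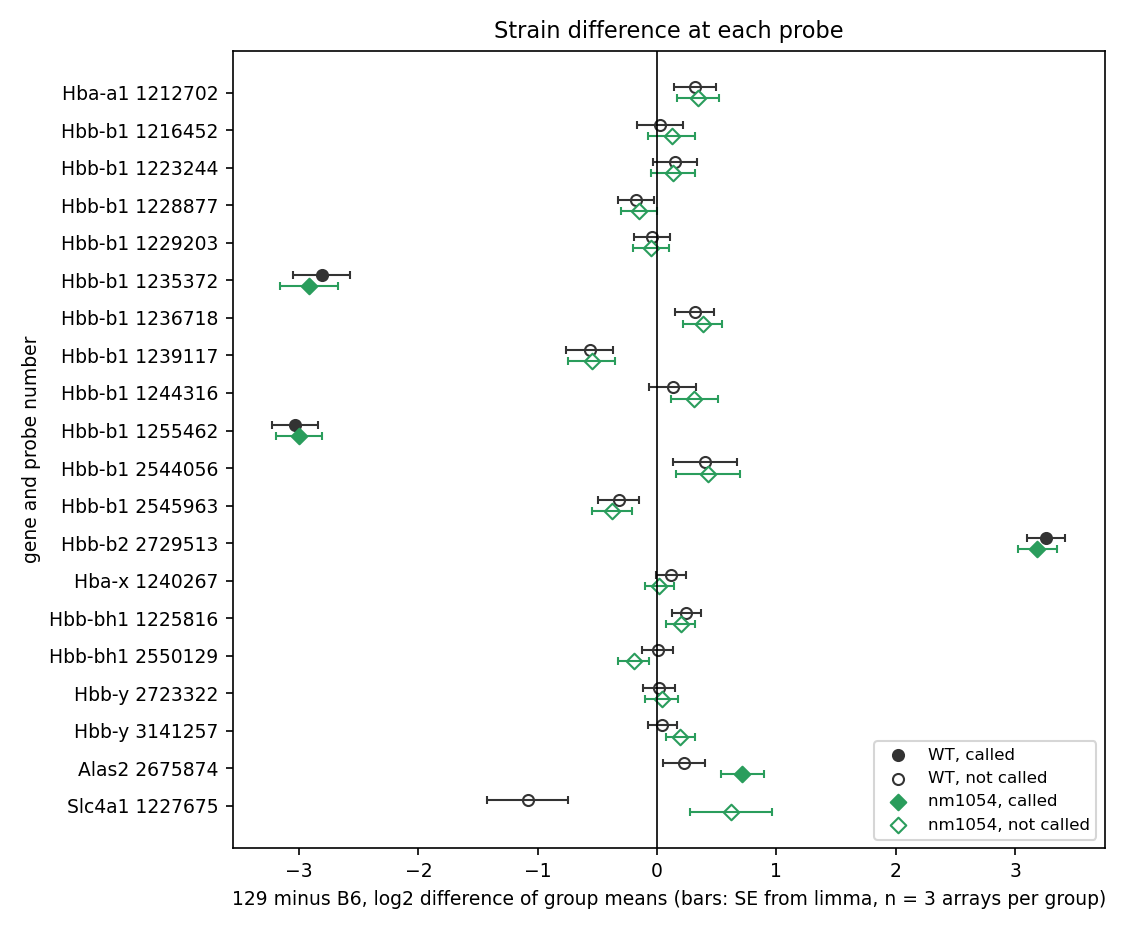
Difference of 129 minus B6 group means in log2 units (horizontal axis) for each probe (vertical axis) in WT brains, black circles, and *nm1054* brains, green diamonds. Bars are limma's SE with 3 arrays per group and filled symbols mark called differences. Every called globin difference has the same direction and nearly the same size in both genotypes, and *Slc4a1* changes sign.

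The adult alpha globin gene *Hba-a1* read 0.40, 0.35 and 0.14 in WT 129, -0.20, 0.25 and 0.10 in *nm1054* 129, -0.28, 0.48 and -0.26 in WT B6, and -0.45, -0.10 and -0.34 in *nm1054* B6 brains. The strains overlapped in both genotypes. The difference of 129 minus B6 was 0.32 in WT and 0.34 in *nm1054* brains (SE 0.17 each), above the shift of all probes by about its SE, and it was not called (adjusted p = 0.25 in each by limma). Without WT B6 replicate 2 the WT difference was 0.57 (adjusted p = 0.032), still under the fold threshold. *Hba-a1* was itself the probe closest to *Hbb-b1* ILMN_2544056 over the 12 arrays, at a mean absolute difference of 0.169, nearly tied with *Xrcc4* at 0.171. The 3 probes closest to *Hbb-b1* ILMN_1216452, ILMN_1239117, ILMN_1244316 and ILMN_2545963 held no other globin gene.

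The embryonic globins were nearly level across the groups. *Hba-x* read between -0.29 and 0.22 over the 12 arrays, the *Hbb-bh1* probes between -0.29 and 0.25, and the *Hbb-y* probes between -0.29 and 0.32. Between strains the 5 probes differed by 0.01 to 0.24 in WT and by -0.20 to 0.20 in *nm1054* brains, and none was called. The medians of those differences were 0.04 and 0.04, below the shift of all probes. In genotype comparisons they differed by -0.18 to 0.10 on 129 and by -0.08 to 0.08 on B6. The widest of these, -0.18 at *Hba-x* on 129, was the only one in which the groups did not overlap. The median SD within groups was 0.14 for embryonic probes, 0.29 for adult globin probes and 0.16 for all probes, so the arrays of a group differed more at adult globins than at embryonic ones.

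Adult globin probes were high or low together among the arrays of a group. *nm1054* 129 replicate 2 was the highest of its group at 13 of 13 adult globin probes, against 51.5% of all probes. WT B6 replicate 2 was highest at 12 of 13, against 31.9% of all probes, and *nm1054* B6 replicate 2 at 12 of 13, against 26.2%. In WT 129 it was replicate 1, at 11 of 13 and 48.1% of all probes. These replicates stood above the mean of the other 2 arrays by a median of 0.42, 0.75, 0.26 and 0.19 over the adult probes, where the medians over all probes were 0.09, 0.04, -0.03 and 0.06. The probes of *Hbb-b2* and *Hbb-b1* share this order although their strain differences are opposed. Whether the replicate numbers pair arrays across groups is not known, and the probes share RNA samples, so this is a description of 12 samples.

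The embryonic probes did not show the same order. WT B6 replicate 2 was highest at 0 of 5 of them, against 31.9% of all probes. WT B6 replicate 3 was highest at 5 of 5, but also at 48.2% of all probes. In the other groups the array with the highest adult probes led at 3 of 5 embryonic probes in *nm1054* 129, 0 of 5 in *nm1054* B6 and 1 of 5 in WT 129 brains. The shares of all probes were 51.5%, 26.2% and 48.1% in that order. With a median SD within groups of 0.14, against 0.16 for all probes, the order of the embryonic probes rests on small differences. The median of the adult probes exceeded that of the embryonic probes by 0.70 in WT B6 replicate 2 and lay between -0.22 and 0.22 from it on the other 11 arrays.

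**Figure D4:**
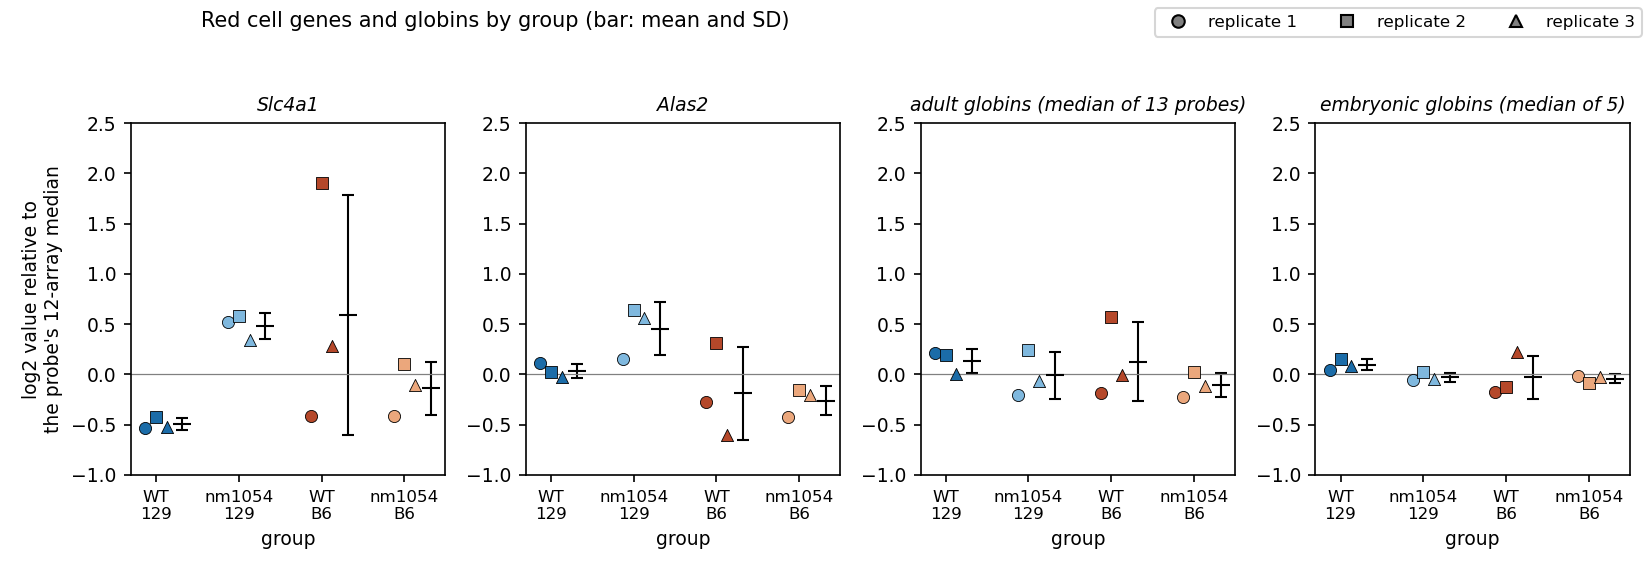
Log2 values by group for *Slc4a1*, *Alas2*, the median of the 13 adult globin probes and the median of the 5 embryonic globin probes, relative to each probe's median over 12 arrays. Symbols are replicates and bars give mean and SD. WT B6 replicate 2 is the highest of its group in the first 3 panels and not in the panel of embryonic globins, and *Slc4a1* is higher in all 3 *nm1054* 129 arrays than in all 3 WT 129 arrays.

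*Slc4a1* spread more widely over the arrays than *Alas2*. It read -0.53, -0.43 and -0.52 in WT 129, 0.53, 0.58 and 0.34 in *nm1054* 129, -0.41, 1.91 and 0.28 in WT B6, and -0.42, 0.11 and -0.11 in *nm1054* B6 brains. The WT 129 arrays lay below every other array, *nm1054* 129 lay above *nm1054* B6, and WT B6 reached from near the lowest value to the highest. The difference of 129 minus B6 was -1.09 in WT brains (SE 0.34, adjusted p = 0.058 by limma) and 0.62 in *nm1054* brains (SE 0.34, adjusted p = 0.29). Without WT B6 replicate 2 the former was -0.43 (adjusted p = 0.16) and the latter, at the same 0.62, was called (adjusted p = 0.025). With array weights the WT difference was -1.83 and was called (adjusted p = 1.3e-05), as it was at -1.09 with the replicate block (adjusted p = 0.032).

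The *Slc4a1* difference of *nm1054* minus WT was 0.98 on 129 (95% interval 0.26 to 1.69) and -0.73 on B6 (95% interval -1.45 to -0.01). Neither passed the adjustment over all probes (adjusted p = 1.00 and 0.81 by limma). Fitted on the 129 arrays alone, whose values are tight, the difference of 0.98 was called (adjusted p = 6.5e-04). The difference on B6 was -0.07 without WT B6 replicate 2, -1.23 without WT B6 replicate 1 (adjusted p = 0.059), and with array weights -1.47, which was called (adjusted p = 0.030). The interaction of strain and genotype was 1.71 (SE 0.48, unadjusted p = 0.0023 and adjusted p = 1.00 by limma), and 1.05 with WT B6 replicate 2 left out. Array weights raised the interaction to 2.45 (adjusted p = 0.0067), and leaving out WT B6 replicate 1 raised it to 2.21 (adjusted p = 0.031), both of them called. *Rsad2*, an interferon-induced gene, ran closest to *Slc4a1* at a mean absolute difference of 0.230, followed by *Edaradd* at 0.355 and *Mfsd7a* at 0.363.

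*Alas2* read 0.12, 0.02 and -0.02 in WT 129, 0.15, 0.64 and 0.56 in *nm1054* 129, -0.27, 0.31 and -0.60 in WT B6, and -0.42, -0.16 and -0.20 in *nm1054* B6 brains. Every *nm1054* 129 array lay above every WT 129 and every *nm1054* B6 array. It was higher in *nm1054* 129 than in *nm1054* B6 brains by 0.71 (SE 0.18, adjusted p = 0.018 by limma), a fold of 1.64. The call was lost without *nm1054* 129 replicate 2 (0.62, adjusted p = 0.10), without *nm1054* 129 replicate 3 (0.66, adjusted p = 0.067) and without *nm1054* B6 replicate 1 (0.63, adjusted p = 0.0997). In WT brains the difference was 0.23 (SE 0.18, adjusted p = 0.41), and the strain difference of *nm1054* brains was not shown to differ from it, as the interaction of 0.49 had an adjusted p of 1.00.

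No globin or red cell probe was called between *nm1054* and WT brains. Of the 20 probes 0 were called on B6 and 0 on 129 by limma, where 0.0177% and 0.0199% of all probes were called, and before adjustment p was under 0.05 at 1 and 2 of them, where it was at 6.12% and 2.65% of all probes. Those were *Slc4a1* on both strains and *Alas2* on 129, where *nm1054* minus WT was 0.42 (95% interval 0.04 to 0.79). No group of B6 arrays stood apart from the other at any of the 20 probes, against 9.22% of all probes, and the 129 groups stood apart at 3, *Hba-x*, *Alas2* and *Slc4a1*, against 11.1%. For the interaction 0 of 20 were called, against 0.00221% of all probes, and *Slc4a1* alone had an unadjusted p under 0.05, against 4.09%.

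Adult globin values in *nm1054* B6 brains lay slightly below WT, and that direction rested on 1 array. On B6 the difference was under 0 at 12 of 13 adult globin probes with a median of -0.15, where 56.0% of all probes lay under 0. Without WT B6 replicate 2 it was under 0 at 3 of 13, with a median of 0.06, where 51.9% of all probes lay under 0. That array was the highest of the WT B6 group at 12 of the 13 probes, so leaving it out had to raise the difference at those. On 129 the difference was under 0 at 11 of 13 with a median of -0.14, where 65.5% of all probes lay under 0 with a median of -0.05.

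*Hbb-b2* was the only adult probe above 0 on both strains, at 0.14 on B6 (95% interval -0.19 to 0.48) and 0.07 on 129 (95% interval -0.26 to 0.41). For *Hba-a1* the differences were -0.28 on B6 (95% interval -0.64 to 0.09) and -0.25 on 129 (95% interval -0.62 to 0.11). Without WT B6 replicate 2 the *Hba-a1* difference on B6 was -0.03. These intervals still hold shifts of either sign, so the adult globins are not shown to be level between genotypes.

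**Figure D5:**
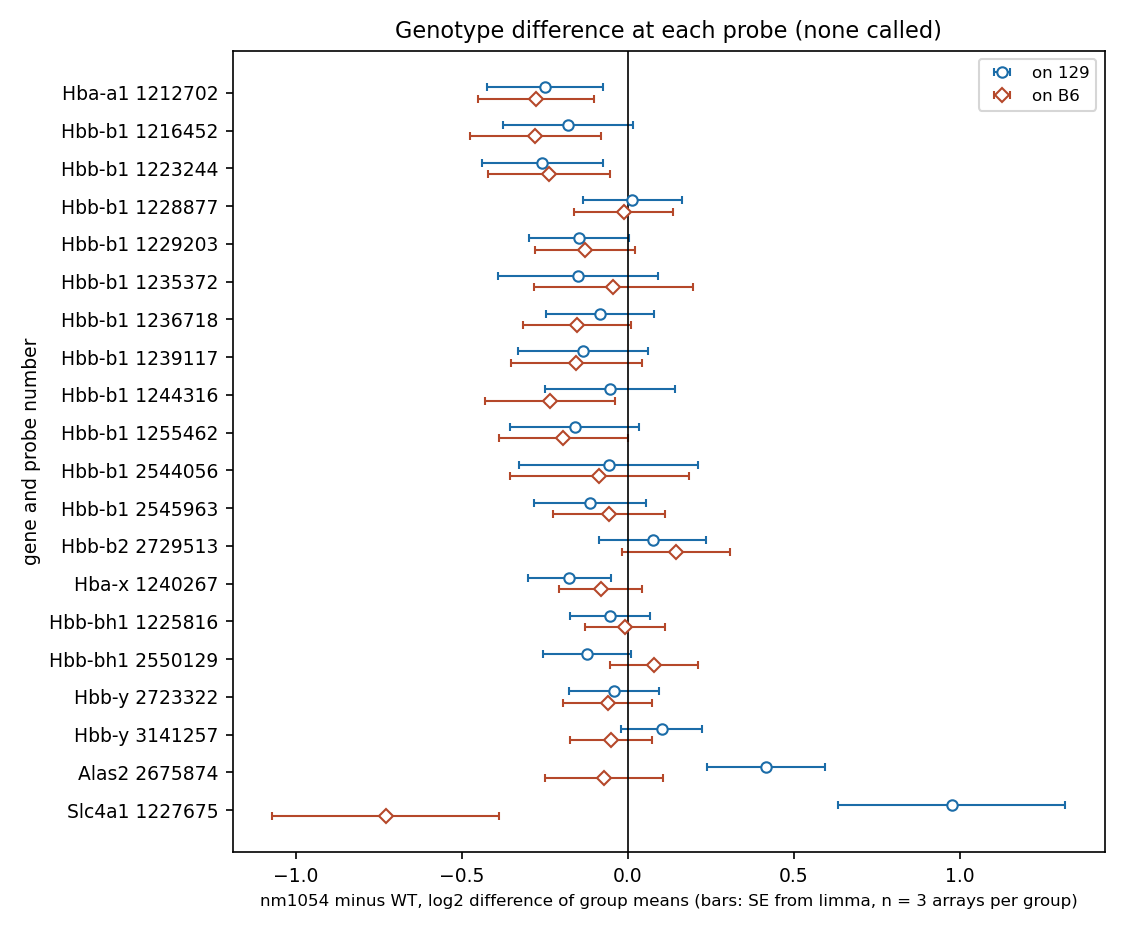
Difference of *nm1054* minus WT group means in log2 units (horizontal axis) for each probe (vertical axis) on 129, blue circles, and on B6, orange diamonds, with limma's SE from 3 arrays per group. No difference is called, the globin probes lie within 0.3 of 0, and *Slc4a1* lies at 0.98 on 129 and -0.73 on B6.

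WT B6 replicate 2 stood apart in some neutrophil genes as well as in adult globins. *S100a8* and *S100a9*, abundant in neutrophils, read 1.54 and 1.18 there, where the other 11 arrays read no higher than 0.31 and 0.26. *Camp* read 0.90, and the 4 probes of *Mpo*, the neutrophil peroxidase, read 0.86, 0.66, -0.0012 and -0.063. Other listed genes stood out less: a probe each of *Ly6c1*, *Elane* and *Ngp* had WT B6 group means of -0.23 (SD 0.26), 0.08 (SD 0.12) and 0.09 (SD 0.18). Of the 17 probes of the neutrophil and monocyte list 9 were highest of the WT B6 group in WT B6 replicate 2, against 31.9% of all probes. The list's mean was 0.32 in that array and ran from -0.14 to 0.14 in the other 11. The choroid plexus list also had a mean of 0.32 there, within its range of -0.33 to 0.32 elsewhere. The platelet list had a mean of 0.03 there, within its range of -0.19 to 0.12 elsewhere, and the endothelial and lymphocyte lists, at 0.04 each, lay within theirs. Among the red cell markers read here *Klf1* read 0.25 there, and *Epb42*, *Gata1* and *Rhag* between -0.09 and 0.01. *Klf1*, *Epb42* and 1 of 3 *Rhag* probes were highest in that array of the WT B6 group, and the *Gata1* probes were not. How much blood each brain held, and its part in these values, was not tested.

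Other red cell genes, taken from lists of globins, membrane proteins, heme and iron enzymes, transcription factors and further red cell genes, gave 132 probes, of 70 of the 81 genes listed, that were analysed here. Between WT strains 10 of the 132 were called, 5 higher and 5 lower in 129, and between *nm1054* strains 7, of which 4 were higher, against the same 3.33% and 3.27% of all probes. The median difference was 0.11 in WT and 0.17 in *nm1054* brains. None was called between genotypes on either strain, where p before adjustment was under 0.05 at 10 of the 132 probes for B6 and at 3 for 129, beside the 6.12% and 2.65% of all probes given above.

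Higher in 129 in both genotypes were *Sptb*, the beta spectrin of the red cell skeleton, *Alad*, the next enzyme of heme synthesis after *Alas2*, *Dmtn*, dematin, and *Blvrb*, a biliverdin reductase. *Sptb* lay between 0.33 and 0.74 over the 6 arrays of 129 and between -0.82 and -0.33 over those of B6, and its difference was 1.13 in WT (adjusted p = 3.9e-06 by limma) and 1.25 in *nm1054* brains. The other 3 *Sptb* probes were not called. *Alad* differed by 0.89 in WT and 0.95 in *nm1054* brains, with 0.23 to 0.60 in 129 and -0.58 to -0.23 in B6 arrays. *Zbtb7a*, a repressor of fetal globin in human cells, was called in WT brains alone, at 0.60.

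Lower in 129 was above all *Prdx2*, peroxiredoxin 2, an abundant antioxidant enzyme of red cells that neurons express too. One of its probes read -2.24 to -1.68 in 129 and 1.68 to 2.10 in B6 arrays, a difference of -3.92 in WT (SE 0.13, adjusted p = 6.9e-14 by limma) and -3.89 in *nm1054* brains. Another gave -2.17 and -2.02, whereas the third differed by -0.03 and 0.02. As with the probes assigned to *Hbb-b1*, probes under 1 symbol thus disagreed on the strain difference. *Sox6*, a silencer of *Hbb-y* in definitive red cells, was lower at 1 of its 5 probes, with differences of -0.60 in WT and -1.46 in *nm1054* brains, and *Aqp1*, a water channel of red cells and choroid plexus, at 2 of 3 probes in WT brains, with differences of -0.74 and -0.62. The choroid plexus list, which also holds *Aqp1*, had a median difference of -0.43 in WT and -0.35 in *nm1054* brains, where all probes had 0.15 and 0.12. Its 10 probes had p before adjustment under 0.05 at 8 and 6, where 26.7% and 22.2% of all probes did. The called ones, all lower in 129, were those of *Aqp1* and 1 of *Folr1* in WT and 1 of *Otx2* in *nm1054* brains. Not every member was lower in 129. A *Kl* probe was higher by 0.29 in WT (unadjusted p = 0.028 by limma) and 0.15 in *nm1054* brains. A *Ttr* probe differed by 0.01 and -0.08, and neither of these was called. The part of choroid plexus in the *Aqp1* values was not tested. The 9 probes of the other globins *Ngb*, *Cygb*, *Mb*, *Hbq1a*, *Hbq1b* and *Adgb* differed between strains by -0.19 to 0.30 and none was called.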

How the data were processed

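Values came from 12 MouseWG-6 bead arrays, each read in 1 colour. Per the methods, intensities were extracted by GenomeStudio and then normalized by GeneSpring GX, and the log2 values deposited by the authors have a median of 0 at every probe. Versions and the kind of normalization are not given in the sources used here. All 45281 probes were kept, detection calls were not used, and 3 arrays per group limit the precision. The platform table named 35784 probes, 28620 of them updated by gene ID and 2637 by accession. RefSeq of GRCm38.p6 gave names and promoters.

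The 12 arrays were fitted together with limma 3.58.1 in R 4.3.3, with a mean for each of 4 groups (8 residual and 10.8 prior degrees of freedom). Tests are two-sided and adjusted by Benjamini-Hochberg over all probes, and an interaction is called at an adjusted p under 0.05. The 95% intervals use limma's SE. An exact permutation test of 3 against 3 arrays cannot go below p = 0.1, so none is given. Nothing says that replicates came from separate litters, so p-values measure the spread between these samples. The beadchip of each array is not given in the sources used here. The calling step was tested on simulated data.

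Alternatives were the methods' t-test, a fit of the groups compared alone, a replicate block, quantile normalization, median centring, array weights, robust variance, removal of the less variable probes, a fold threshold of 2 or none, and leaving out single arrays. The count of adult globin probes below 0 on B6 without WT B6 replicate 2 was added after the data had been seen. Members and gene lists were chosen with earlier results of these data known. Named genes are all members, the other globins, red cell list genes with a called probe, and the 3 probes closest to a member by mean absolute difference. *S100a8*, *S100a9*, *Camp*, *Mpo*, *Ly6c1*, *Elane*, *Ngp*, *Folr1*, *Otx2*, *Kl*, *Ttr* and the red cell markers come from marker lists and were named after their values were seen. Some listed genes are not reported here. Lists of lymphocytes, meninges, choroid plexus and neurons were also read. Their means in WT B6 replicate 2 were 0.04, 0.03, 0.32 and -0.13, each within the range of the other 11 arrays.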

Additional observations from a re-analysis of the deposited data

How the results depend on the processing

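Over 22 alternative settings the calls of *Hbb-b2* and of the *Hbb-b1* probe ILMN_1255462 held in both genotypes. No called difference changed sign. The count of member probes called between WT strains went from 3 to 5 with quantile normalization, median centring or array weights, and ran from 3 to 5 with 1 array left out (5 without WT B6 replicate 3). In *nm1054* brains it ran from 3 to 5 with 1 array left out. With array weights 1 probe, *Slc4a1*, was called between genotypes on B6 and 1 for the interaction, with only the arrays of the groups compared 1 was called on 129, and without WT B6 replicate 1 the interaction count was 1 in place of 0 (lowest 0, highest 1 over the arrays left out). The *Slc4a1* strain difference in WT brains was called with the replicate block, quantile normalization, median centring, array weights, the more variable probes alone, and without WT B6 replicate 1 (-1.59) or 3 (-1.24). The *Alas2* call in *nm1054* brains was lost with the methods' t-test, array weights and a fold over 2. Red cell list counts in WT brains were 10, but 5 with the methods' t-test, 16 with no fold threshold, 3 at a fold over 2 and 6 to 10 with 1 array left out. In *nm1054* brains they were 7, but 12 with no fold threshold and 4 at a fold over 2. The causes of these changes were not tested.

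Over all probes the deviations of same-numbered arrays from their group means correlated at -0.32 to 0.19, and 2 of 12 arrays correlated best with their own number. Such correlations cannot exclude that a number marks a shared litter, day or chip, so whether the arrays are paired is not known. With the replicate block 4 member probes were called in each strain comparison, 0 in the others, and 10 and 7 red cell list probes.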

Other observations

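*Tal1*, a transcription factor of blood and endothelial precursors that also acts in some neurons, had a probe with 2 high arrays that did not follow the globins. It read 1.59 in WT B6 replicate 1 and 1.27 in *nm1054* B6 replicate 2, and between -0.44 and 0.58 on the other 10 arrays. WT B6 replicate 1 was the lowest of its group at 11 of 13 adult globin probes, and *nm1054* B6 replicate 2 the highest of its group at 12 of 13. *Tal1* was named after its values were seen.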
